A study of Mus musculus with 12 samples.

Results

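The 33 genes described here encode the core machinery that builds the autophagosome and readies it to meet the lysosome. They were chosen by gene symbol, as the ULK and phosphatidylinositol 3-kinase (PI3K) complexes, the factors that read the PI3K lipid or supply membrane, the ATG conjugation enzymes with the ATG4 proteases, and tethering and fusion factors. All 33 were found, 1 row each, among the 28977 gene IDs of the deposited expression table. The cells were J774A.1, a mouse macrophage-like line, exposed for 1 h and then kept for 24 h in full medium before RNA was taken. Hypochlorous acid (HOCl), the oxidant that myeloperoxidase makes, was given at 20 µM or at 100 µM in HBSS, a buffered salt solution. Its vehicle control had HBSS with 0 µM HOCl, and a further group had cell media in place of HBSS during that hour. Each of the 4 groups had 3 libraries, 12 in all, from the same unmodified line. The design text names a sublethal and a lethal range of HOCl without saying which dose is which. The labels do not say that the replicates came from separate cultures, so the p-values here reflect no more than the spread among libraries, which may be technical.

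Autophagy encloses cytoplasm, damaged organelles or microbes in a double membrane and delivers them to the lysosome. The ULK kinase complex starts the process, the PI3K complex marks the site with phosphatidylinositol 3-phosphate (PI3P), and PI3P readers, lipid transfer proteins and lipid scramblases let the membrane grow. An enzyme cascade then attaches ATG8 proteins such as LC3 to the membrane lipid, ATG4 proteases prepare and recycle those proteins, and SNAREs and tethers join the closed vesicle to the lysosome. Macrophages use the same proteins in the handling of engulfed microbes and in LC3-associated phagocytosis.

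Values are FPKM (fragments per kilobase of exon, scaled to library depth), and levels between genes are compared only on this per-length scale. Reads behind the values, recovered from the steps of the FPKM values, came to between 17683937 and 21408517 per library. Among 12026 genes with at least 1 FPKM in at least 3 libraries, all 33 autophagosome genes were included. Macrophage markers were present in every library, with Lyz2 between 2020 and 2892 FPKM and Cd68 between 771 and 918 FPKM. The sum over 8 such markers was 3531 to 4018 FPKM at 100 µM, 3183 to 3343 FPKM at 20 µM, 3048 to 3350 FPKM in HBSS and 3182 to 3374 FPKM in cell media, and the part of this shift at 100 µM in the results was not tested. Lyz2 and Cd68 made up most of this sum, while Csf1r had 41.4 to 92.4 FPKM, Adgre1 3.71 to 9.14 FPKM and Mertk 2.40 to 7.44 FPKM. Marker sums for fibroblast, epithelial, endothelial, T and B cells stayed at or under 0.675 FPKM. Of the neutrophil markers Mpo was at most 0.029 FPKM and Elane at most 0.115 FPKM, while S100a8, at 9.71 to 19.1 FPKM, made up nearly all of a sum of 13.97 to 16.47 FPKM at 100 µM, 10.76 to 12.01 FPKM at 20 µM, 9.99 to 12.9 FPKM in HBSS and 9.91 to 19.2 FPKM in cell media. In cell media, replicates 1 and 2 were unlike the remaining 10 libraries. Their correlation with each other over log2 values was 0.9881, and with those 10 libraries it was between 0.9464 and 0.9713. The lowest correlation among those 10 was 0.9735. Each comparison below is therefore also given on 10 libraries, without cell media replicates 1 and 2.

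The promoters of 26 of the 33 genes were in the RefSeq table used (build GRCm38.p6, 250 bases before to 50 after the start). The ones shown carry CACGTG, the palindromic E-box core that TFEB and related transcription factors of lysosome and autophagy genes bind. This motif, the same on both strands, was in the windows of 5 of the 26 genes (19.2%), Atg3, Atg5, Atg7, Atg14 and Nrbf2, and in those of 8.09% of all 27025 genes in the table. Its extended form TCACGTGA, which holds CACGTG, was in 2 of the 26 (7.69%), Atg3 and Nrbf2, and in 1.12% of all genes. TGACNNNGC, searched on both strands as a core of the antioxidant response element, was in 4 of the 26 (15.4%), Atg13, Nrbf2, Ulk2 and Vmp1, and in 14% of all genes. The windows compared also differed in base content. The 30 windows of the 26 genes had a median of 61.7% G and C bases, against 52.7% for all 32851 windows in the table. The shares of all genes cover every gene in the table, whether or not it was expressed in these cells. The part of base content or of expression in the motif shares was not tested. The windows of 4 E-box genes are printed 5′ to 3′ on the gene's strand, with the E-box or its extended form in capitals.
Atg3 (chr16:45158579-45158878, plus strand): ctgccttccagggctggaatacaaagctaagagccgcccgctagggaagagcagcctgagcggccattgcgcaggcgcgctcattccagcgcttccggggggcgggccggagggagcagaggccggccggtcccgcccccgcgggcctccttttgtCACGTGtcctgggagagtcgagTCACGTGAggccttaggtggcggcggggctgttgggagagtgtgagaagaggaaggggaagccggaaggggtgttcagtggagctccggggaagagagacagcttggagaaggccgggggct
Atg5 (chr10:44268089-44268388, plus strand): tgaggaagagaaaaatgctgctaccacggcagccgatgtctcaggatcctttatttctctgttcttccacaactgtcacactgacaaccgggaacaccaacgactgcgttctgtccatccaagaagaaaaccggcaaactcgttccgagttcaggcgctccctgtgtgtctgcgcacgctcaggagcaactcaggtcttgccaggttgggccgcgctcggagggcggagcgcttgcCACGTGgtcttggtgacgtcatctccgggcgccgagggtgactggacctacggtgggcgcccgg
Atg14 (chr14:47568385-47568684, minus strand): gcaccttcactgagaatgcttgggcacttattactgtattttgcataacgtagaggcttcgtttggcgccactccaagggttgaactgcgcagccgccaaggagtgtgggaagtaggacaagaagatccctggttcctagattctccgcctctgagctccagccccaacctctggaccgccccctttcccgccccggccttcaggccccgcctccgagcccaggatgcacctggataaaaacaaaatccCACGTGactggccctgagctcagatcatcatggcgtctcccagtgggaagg
Nrbf2 (chr10:67285232-67285531, minus strand): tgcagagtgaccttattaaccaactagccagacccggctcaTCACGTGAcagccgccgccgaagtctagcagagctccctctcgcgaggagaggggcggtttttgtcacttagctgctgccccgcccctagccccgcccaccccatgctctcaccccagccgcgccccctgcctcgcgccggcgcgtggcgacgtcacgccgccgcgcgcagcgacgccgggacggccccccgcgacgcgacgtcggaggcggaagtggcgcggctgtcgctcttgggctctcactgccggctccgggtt
The first E-box base lay 94 bases before the start in Atg3, which has 2 E-boxes, 14 bases before it in Atg5, 1 base before it in Atg14 and 208 before it in Nrbf2. A match is a description of the letters, not a bound site.

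The level of the machinery was modest. The median gene of the 33 averaged 5.96 FPKM over the 12 libraries, against 7.32 FPKM for all genes included, and 25 of 33 were under 10 FPKM. The 3 genes at 20 FPKM or more were Vmp1, Atg13 and Atg101. The lowest were Wipi1 with a mean of 1.47 FPKM and Atg10 with a mean of 1.79 FPKM, which had as few as 38 reads in a library, while the other 32 genes had at least 100 reads in every library. Over the 10 libraries the median coefficient of variation of the 33 genes was 8.67%, against 9.39% for all genes included. Wdfy3, a large scaffold protein of aggregate clearance, varied most, with 23.5%.

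**Figure D1:**
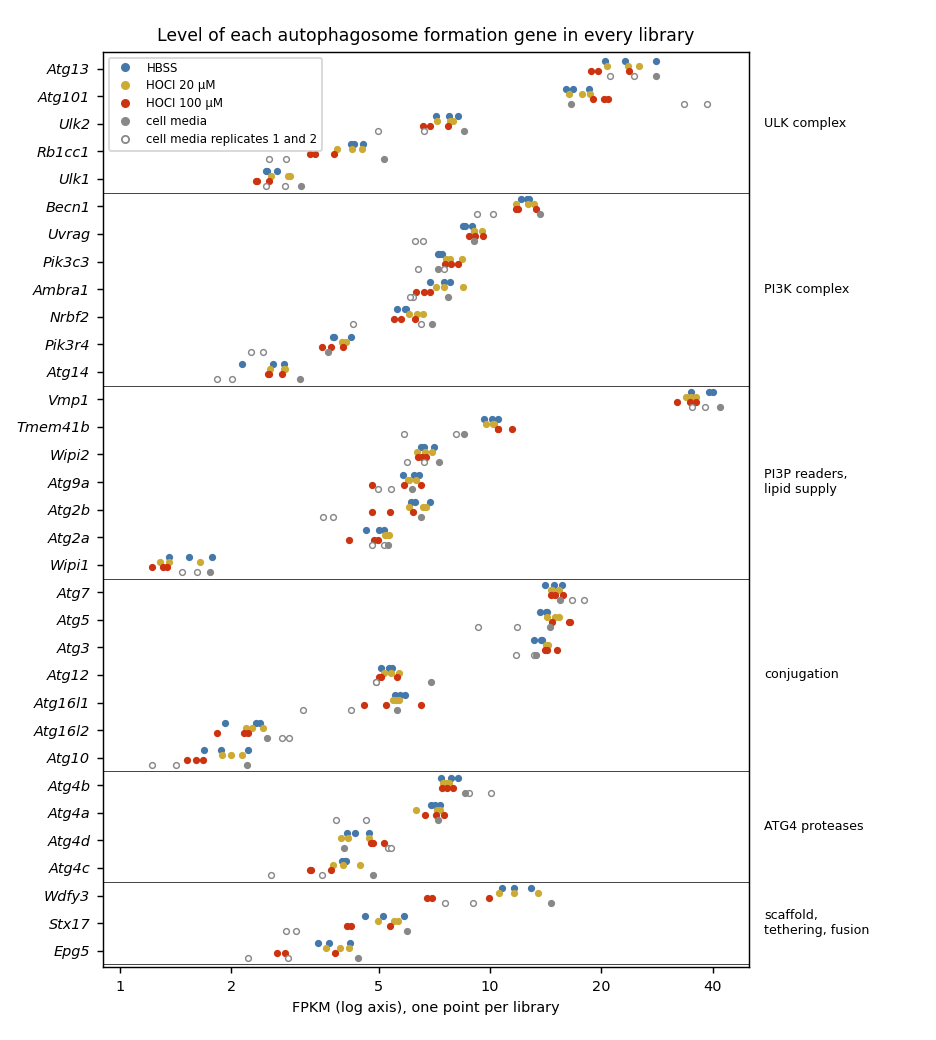
FPKM of each of the 33 genes (log axis) in each library, 1 point per library, grouped by role and ordered by level within a role. Blue is HBSS, yellow 20 µM HOCl, red 100 µM HOCl and grey cell media, with open circles for cell media replicates 1 and 2, which often lie apart from the other libraries, as for Atg101 near 33.4 and 38.6 FPKM.

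At 100 µM HOCl, none of the 33 genes differed from HBSS at an adjusted p under 0.05, and the scaffold gene Wdfy3 stood furthest from its HBSS level. Limma on log2(FPKM + 1) over 12 libraries, with Benjamini-Hochberg adjustment over 12026 genes, called 0 of 33 and 0 of 12026 (0%). Limma-voom on the recovered reads called 0 of 33 as well. At an unadjusted p under 0.05 the count was 1 of 33, Wdfy3, which was lower, where 3.96% of all genes were lower and 3.8% higher at that threshold. Log2 differences were below 0 for 23 of the 33 genes and above 0 for 10, with a median of -0.058, against -0.0063 for all genes, of which 51.5% were below 0 and 48.5% above 0. The 95% intervals of the single differences ran from -0.99 to 0.73. In bulk RNA, fewer cells of a kind and less RNA per cell cannot be told apart.

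Wdfy3 (ENSMUSG00000043940) had 9.94, 6.75 and 6.97 FPKM at 100 µM, against 12.9, 10.8 and 11.6 FPKM in HBSS. All 3 libraries at 100 µM lay below every HBSS library, and the highest of them was replicate 1. The log2 difference was -0.54 with a standard error (SE) of 0.21 and an adjusted p of 0.625 by limma, or 0.0694 on 10 libraries. Its 20 µM libraries, with 13.5, 11.6 and 10.6 FPKM, overlapped the HBSS libraries.

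In the ULK complex, 4 of 5 genes had a difference below 0 at 100 µM, and the median of the 5 was -0.11. Rb1cc1 (ENSMUSG00000025907) encodes FIP200, the scaffold of the complex, and had 3.79, 3.25 and 3.36 FPKM at 100 µM, against 4.53, 4.29 and 4.21 FPKM in HBSS. The groups did not overlap, with a log2 difference of -0.26 (SE 0.17, limma adjusted p = 0.67, or 0.0694 on 10 libraries). Atg13 (ENSMUSG00000027244), the regulatory subunit, had 23.8, 19.5 and 18.7 FPKM at 100 µM, against 28.1, 23.2 and 20.4 FPKM in HBSS. These values overlapped, and the log2 difference was -0.19 (SE 0.14, limma adjusted p = 0.686). The kinase genes overlapped between groups, Ulk1 with 2.40 ± 0.113 FPKM at 100 µM and 2.54 ± 0.0941 FPKM in HBSS, and Ulk2 with 7.06 ± 0.581 FPKM at 100 µM and 7.69 ± 0.51 FPKM in HBSS (SD, n = 3 each). Atg101 (ENSMUSG00000037204), which stabilises ATG13, was the 1 gene of the complex with a difference above 0, at 18.9, 20.3 and 20.8 FPKM at 100 µM against 16.0, 18.5 and 16.8 FPKM in HBSS. All 3 of its 100 µM libraries lay above HBSS, the lowest of them just above the highest HBSS library.

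The PI3K complex showed no common direction at 100 µM, with 4 of 7 differences above 0 and a median of 0.0048. Pik3c3, the lipid kinase VPS34, had 8.21, 7.85 and 7.55 FPKM at 100 µM, against 7.30, 7.42 and 7.24 FPKM in HBSS, and the groups did not overlap. Ambra1, a scaffold that binds Beclin 1, had 6.90, 6.31 and 6.63 FPKM at 100 µM, against 7.52, 6.88 and 7.77 FPKM in HBSS. Its values overlapped by 1 library, and the log2 difference was -0.14 (SE 0.096, limma adjusted p = 0.675). Becn1, encoding Beclin 1, averaged 12.3 ± 0.863 FPKM at 100 µM and 12.5 ± 0.319 FPKM in HBSS (SD, n = 3 each). The gene pair that sets the kind of PI3K complex, Atg14 for autophagosome formation and Uvrag for endosomal sorting, had 2.59 ± 0.13 and 9.15 ± 0.403 FPKM at 100 µM, against 2.50 ± 0.325 and 8.64 ± 0.279 FPKM in HBSS. Nrbf2, which binds the ATG14 complex, averaged 5.83 ± 0.386 FPKM at 100 µM and 5.80 ± 0.176 FPKM in HBSS, and Pik3r4, the regulatory subunit VPS15, 3.75 ± 0.248 FPKM at 100 µM and 3.93 ± 0.257 FPKM in HBSS.

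Among PI3P readers and membrane suppliers, 6 of 7 differences were below 0 at 100 µM, with a median of -0.098. Vmp1 (ENSMUSG00000018171), a scramblase of the endoplasmic reticulum and the most abundant of the 33 genes, had 35.9, 34.8 and 32.0 FPKM at 100 µM, against 38.9, 40.0 and 35.0 FPKM in HBSS. Its values overlapped in 1 library, and the log2 difference was -0.15 (SE 0.086, limma adjusted p = 0.666). The exons of Vmp1 also hold the hairpin of microRNA 21a on the same strand, so reads of its primary transcript and of Vmp1 share those bases. The mature arms are shown from RefSeq (GRCm38.p6), with the seed, bases 2 to 8, in capitals.
mmu-miR-21a-5p (chr11:86584120-86584141, minus strand): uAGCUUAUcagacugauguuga
mmu-miR-21a-3p (chr11:86584082-86584103, minus strand): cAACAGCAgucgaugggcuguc
Wipi1, a PI3P reader, had 1.34, 1.30 and 1.22 FPKM at 100 µM, against 1.77, 1.36 and 1.54 FPKM in HBSS. The gap between its groups was small beside the HBSS spread, with a log2 difference of -0.16 (SE 0.097, limma adjusted p = 0.669). Wipi2, the reader that recruits ATG16L1, averaged 6.54 ± 0.155 FPKM at 100 µM and 6.73 ± 0.27 FPKM in HBSS. The lipid transfer genes Atg2a and Atg2b averaged 4.67 ± 0.444 and 5.45 ± 0.701 FPKM at 100 µM, against 4.94 ± 0.278 and 6.43 ± 0.419 FPKM in HBSS. Atg9a, the scramblase of the seed vesicles, averaged 5.72 ± 0.861 FPKM at 100 µM and 6.16 ± 0.308 FPKM in HBSS, and Tmem41b, a scramblase related to VMP1, 10.8 ± 0.545 FPKM at 100 µM and 10.1 ± 0.431 FPKM in HBSS (SD, n = 3 each).

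The conjugation enzymes lay on both sides of 0 at 100 µM, 3 above and 4 below, with a median of -0.012. Atg5, part of the complex that attaches ATG8 to lipid, had 14.7, 16.3 and 16.5 FPKM at 100 µM, against 13.6, 14.2 and 14.2 FPKM in HBSS. Atg3, the enzyme that hands ATG8 to the lipid, had 14.1, 14.3 and 15.2 FPKM at 100 µM, against 13.2, 13.7 and 13.8 FPKM in HBSS. In both genes every 100 µM library lay above every HBSS library. Atg10, the enzyme that joins ATG12 to ATG5, had 1.61, 1.67 and 1.52 FPKM at 100 µM, below all HBSS libraries with 1.69, 2.23 and 1.87 FPKM. Atg7, the activating enzyme of the cascade, averaged 15.1 ± 0.575 FPKM at 100 µM and 14.9 ± 0.807 FPKM in HBSS, and Atg12, the ubiquitin-like partner of ATG5, 5.23 ± 0.315 FPKM at 100 µM and 5.28 ± 0.187 FPKM in HBSS. Atg16l1, which places the complex on the membrane, averaged 5.44 ± 0.977 FPKM at 100 µM and 5.71 ± 0.183 FPKM in HBSS, and its relative Atg16l2 averaged 2.07 ± 0.21 FPKM at 100 µM and 2.21 ± 0.252 FPKM in HBSS (SD, n = 3 each).

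Among the ATG4 proteases, Atg4c had 3.71, 3.26 and 3.28 FPKM at 100 µM, all below HBSS with 3.99, 4.05 and 4.08 FPKM. Atg4d had 4.77, 4.83 and 5.16 FPKM at 100 µM, all above HBSS with 4.71, 4.11 and 4.31 FPKM. Their paralogs Atg4a and Atg4b averaged 7.10 ± 0.406 and 7.66 ± 0.261 FPKM at 100 µM, against 7.12 ± 0.215 and 7.81 ± 0.408 FPKM in HBSS. Beside the scaffold gene Wdfy3, the scaffold, tethering and fusion group held Epg5, a tether that binds lysosomal RAB7, with 3.09 ± 0.637 FPKM at 100 µM and 3.77 ± 0.39 FPKM in HBSS, and Stx17, the autophagosomal SNARE, with 4.57 ± 0.693 FPKM at 100 µM and 5.20 ± 0.633 FPKM in HBSS (SD, n = 3 each). All 3 genes of this group had a difference below 0, with a median of -0.23.

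Counted over all roles, the 100 µM and HBSS libraries did not overlap for 5 genes that were higher at 100 µM (Atg101, Pik3c3, Atg3, Atg4d and Atg5), or 15.2% of the 33, where 16.5% of all genes were so. For 5 genes that were lower at 100 µM (Rb1cc1, Wipi1, Atg4c, Atg10 and Wdfy3), the share was the same, where 17.6% of all genes were so. Both shares are near the background. On 10 libraries the median SE of the 33 differences was 0.065, against 0.12 on 12 libraries. There limma called 0 of 33 genes and 29 of 12026 (0.241%), and at an unadjusted p under 0.05 it had 2 of 33 higher, where 14.9% of all genes were, and 5 of 33 lower, where 17.3% were. Leaving out cell media replicate 3, or HBSS replicate 3, gave 5 genes or 1 gene of the 12026, and 0 of 33 each time. The median of the 33 differences was -0.091 without 100 µM replicate 1, -0.035 without 100 µM replicate 2 and -0.022 without 100 µM replicate 3. The split of directions narrowed with the scaling, to 21 below 0 with median-of-ratios scaling and 19 below 0 with quantile normalization. Single directions turned for Wipi2, Atg4a, Atg4b and Atg12.

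**Figure D2:**
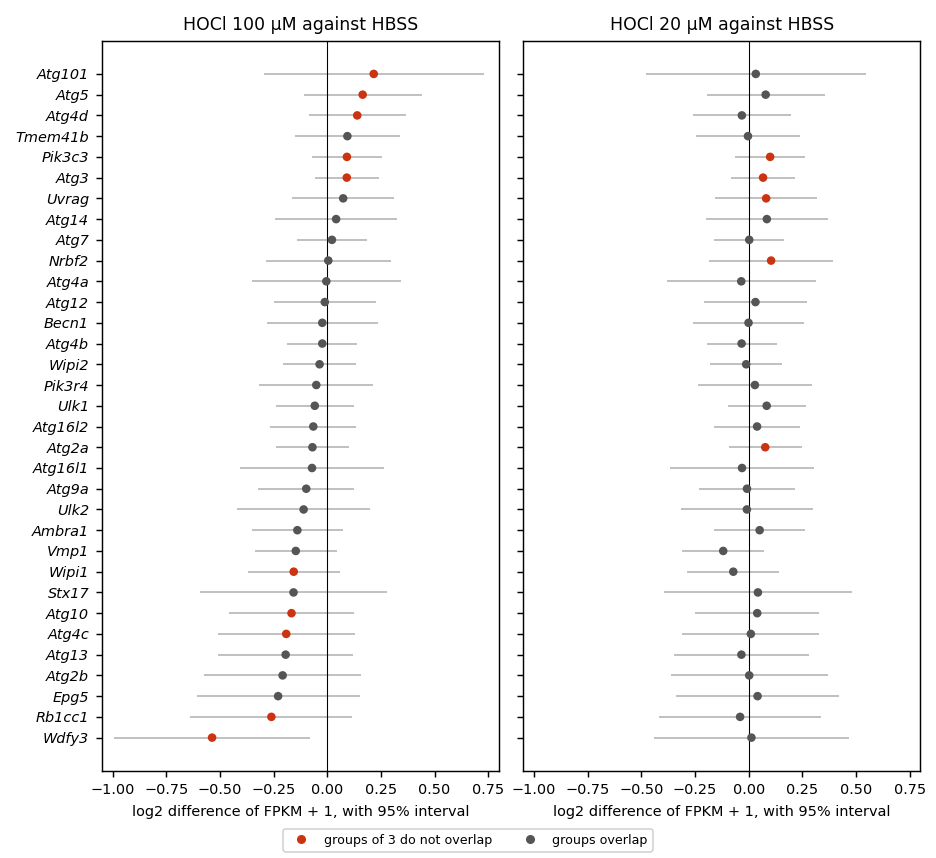
Log2 difference of FPKM + 1 for each of the 33 genes at 100 µM against HBSS (left) and at 20 µM against HBSS (right), with 95% intervals from limma on 12 libraries and red points where the groups of 3 do not overlap. The left panel runs from Atg101 at 0.22 to Wdfy3 at -0.54, and the right panel keeps all 33 between -0.12 and 0.10.

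Exon length moved with the differences at 100 µM. Across genes, the Spearman correlation between exon length and log2 difference was -0.35 over the 33 genes and -0.41 over 11895 genes with a length, all from the same 6 libraries and not independent points. The 33 genes are long, with a median of 6122 exon bases against 3795 for all genes. The 5 with over 10000 bases, Wdfy3 (15346 bases), Rb1cc1 (14690), Atg2b (13456), Wipi2 (10543) and Epg5 (10039), were all below 0 at 100 µM with a median of -0.23, and so were 89.2% of all 950 genes of that length, with a median of -0.16. With the length trend of all genes taken out, an alternative added after seeing the data, the median of the 5 was -0.088, Wdfy3 had -0.36 and Rb1cc1 had -0.088. At 20 µM this correlation was -0.18 over the 33 genes and -0.096 over all. There 2 of the 5 longest were below 0, where 48.2% of the 950 genes were. In HBSS against cell media the slope had the other sign, 0.18 over the 33 genes and 0.40 over all. There 0 of the 5 longest were below 0, where 5.37% of the 950 genes were. At 100 µM with the trend out, the split over the 33 became 18 above 0 and 15 below 0, with a median of 0.017. By role, the genes below 0 were then 3 of 5 in the ULK complex, 2 of 7 in the PI3K complex, 4 of 7 readers and membrane suppliers, 1 of 7 conjugation enzymes, 2 of 4 ATG4 proteases and 3 of 3 scaffold, tethering and fusion genes. The part of exon length in these differences was not tested.

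**Figure D3:**
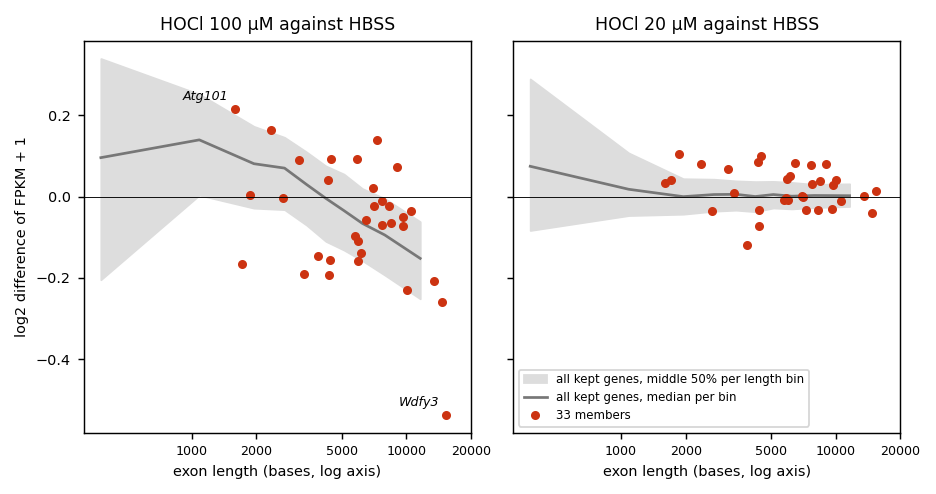
Log2 difference of FPKM + 1 against exon length (log axis) at 100 µM against HBSS (left) and at 20 µM against HBSS (right), with the 33 genes in red, the median of all genes per length bin as a line and their middle 50% in grey. At 100 µM both the line and the red points slope down toward long genes (Spearman correlation -0.41 and -0.35). The line and the grey band end at the median length of the longest bin, 11590.5 bases, where the lower edge is -0.25. Wdfy3, with 15346 bases, lies to the right of that end and lower than that edge, so no band is drawn at its length.

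At 20 µM HOCl, the 33 genes lay close to their HBSS levels, with differences between -0.12 and 0.10, and none passed the test. Limma on 12 libraries called 0 of 33 and 0 of 12026 (0%), limma on 10 libraries and limma-voom called 0 of 33, and 0 of 33 had an unadjusted p under 0.05, where 1.08% of all genes did. The 95% intervals ran from -0.48 to 0.55. Differences were above 0 for 20 genes, where 53.9% of all genes were, and below 0 for 13, where 46.1% were. Their median of 0.013 became -0.00058 with quantile normalization (16 above, 17 below) and ranged from 0.0037 to 0.041 as single libraries were left out.

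Vmp1 had the largest difference at 20 µM, with 34.8, 35.9 and 33.8 FPKM against 38.9, 40.0 and 35.0 FPKM in HBSS, a log2 difference of -0.12 (SE 0.086, limma adjusted p = 1). Of the 7 PI3K complex genes 6 had a difference above 0, with a median of 0.081. Pik3c3 had 7.60, 7.77 and 8.41 FPKM at 20 µM, all above HBSS with 7.30, 7.42 and 7.24 FPKM, and a log2 difference of 0.10 (SE 0.074). Nrbf2 had 6.35, 6.57 and 6.02 FPKM at 20 µM, all above HBSS with 5.60, 5.90 and 5.92 FPKM, and a log2 difference of 0.10 (SE 0.13). Ulk1, the initiating kinase, had 2.84, 2.87 and 2.55 FPKM at 20 µM, against 2.65, 2.50 and 2.48 FPKM in HBSS, with an overlap of 1 library and a difference of 0.084 (SE 0.083). Atg2a had 5.32, 5.21 and 5.25 FPKM at 20 µM, against 5.18, 4.64 and 5.01 FPKM in HBSS, a difference of 0.077 (SE 0.077). Atg3 had 14.3, 14.2 and 14.3 FPKM at 20 µM, all above its HBSS libraries, a difference of 0.067 (SE 0.067). The adjusted p by limma was 1 for each of these genes. The groups did not overlap for 5 genes that were higher at 20 µM (Pik3c3, Uvrag, Nrbf2, Atg2a and Atg3), or 15.2% of the 33, where 4.21% of all genes were so, and for 0 genes that were lower, where 3.48% were so. The choice of the 33 was made with results of these data known, and no test was made of that count.

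**Figure D4:**
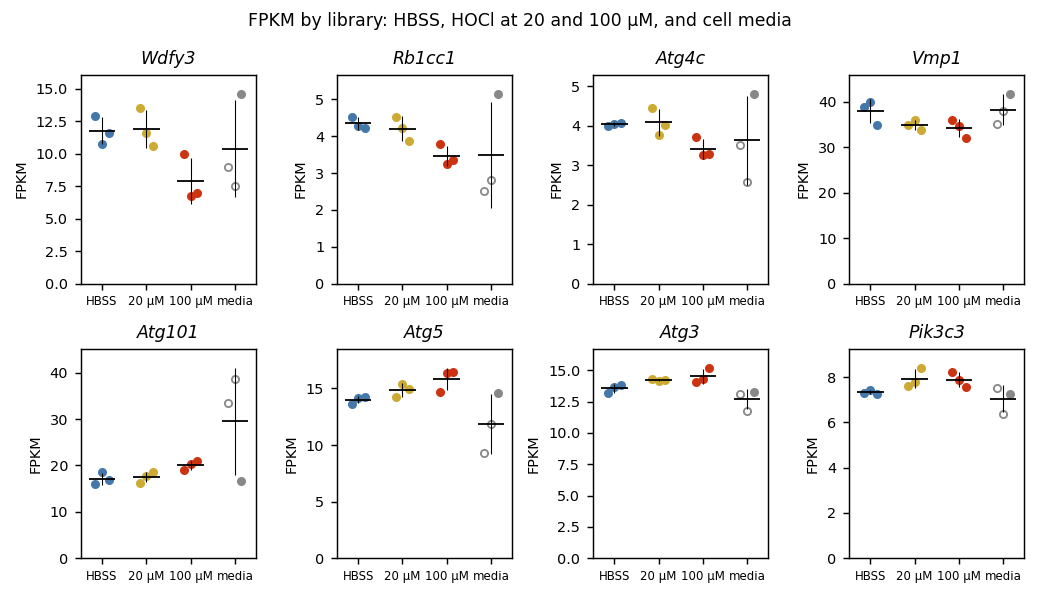
FPKM of 8 of the genes by library, with the group mean (bar) and SD (line), for HBSS, 20 µM HOCl, 100 µM HOCl and cell media from left to right, and open circles for cell media replicates 1 and 2. Wdfy3, Rb1cc1 and Atg4c at 100 µM lie below HBSS, Atg101, Atg5 and Atg3 at 100 µM lie above it, and Pik3c3 lies above HBSS at both doses.

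The 5 E-box genes Atg3, Atg5, Atg7, Atg14 and Nrbf2 had differences from HBSS above 0 at both doses, between 0.0048 and 0.16 at 100 µM with a median of 0.041, and between 0.0027 and 0.10 at 20 µM with a median of 0.079. Of the 21 genes whose windows lacked the motif, 4 were above 0 at 100 µM, with a median of -0.069, and 11 were above 0 at 20 µM, with a median of 0.0026. The doses share the HBSS libraries. Most of the 5 genes have short exons, with 1860 bases in Nrbf2, 2352 in Atg5, 3154 in Atg3, 4322 in Atg14 and 6968 in Atg7. With the length trend out, 4 of the 5 genes were above 0 at 100 µM, with Nrbf2 at -0.077, and 10 of the 21 without the motif were above 0. At 20 µM with the trend out, 5 of the 5 and 15 of the 21 were above 0. At 100 µM against 20 µM, 3 of the 5 and 5 of the 21 were above 0, or 2 and 7 with the trend out. In HBSS against cell media, without HOCl, 4 of the 5 and 12 of the 21 were above 0, or 4 and 11 with the trend out. The 7 genes without a window, Pik3c3 among them, were in neither group. Atg7, Atg14 and Nrbf2 turned direction at 100 µM when 1 library was left out, and Atg7 did so at 20 µM both when 1 library was left out and with another scaling. The grouping was made after the data were seen, so no test was made.

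Between the doses, Wdfy3 again stood out, with 9.94, 6.75 and 6.97 FPKM at 100 µM against 13.5, 11.6 and 10.6 FPKM at 20 µM and no overlap. Its log2 difference was -0.55 (SE 0.21, limma adjusted p = 0.825, or 0.124 on 10 libraries). Limma called 0 of 33 and 0 of 12026 (0%) on 12 libraries, limma-voom and the 10 libraries also gave 0 of 33, and Wdfy3 was the 1 gene of 33 with an unadjusted p under 0.05, where 2.74% of all genes were lower and 1.26% higher. Differences were below 0 for 25 of the 33 genes, where 53.8% of all genes were, and above 0 for 8, where 46.2% were, with a median of -0.080 against -0.017 for all genes. That split was 22 below 0 with median-of-ratios scaling and 19 below 0 with quantile normalization, and the median of the 33 ranged from -0.12 to -0.040 as single libraries were left out. The Spearman correlation with exon length was -0.32 over the 33 genes and -0.40 over all, and with the length trend out 21 of the 33 were below 0 and 12 above, with a median of -0.047. The 100 µM libraries are those of the first comparison.

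Ambra1 had 6.90, 6.31 and 6.63 FPKM at 100 µM, against 8.45, 7.15 and 7.50 FPKM at 20 µM, without overlap and with a difference of -0.19 (SE 0.096). Ulk1 had 2.53, 2.35 and 2.33 FPKM at 100 µM, just below its lowest 20 µM library, a difference of -0.14 (SE 0.083). Atg2a had 4.87, 4.16 and 4.98 FPKM at 100 µM, below all 20 µM libraries with 5.32, 5.21 and 5.25 FPKM, a difference of -0.15 (SE 0.077). Epg5 had 3.82, 2.66 and 2.80 FPKM at 100 µM, against 4.17, 3.94 and 3.60 FPKM at 20 µM, where replicate 1 at 100 µM lay within the 20 µM values, a difference of -0.27 (SE 0.17). Atg4d differed the other way, with 4.77, 4.83 and 5.16 FPKM at 100 µM, all above 3.95, 4.14 and 4.70 FPKM at 20 µM, a difference of 0.17 (SE 0.10). The adjusted p by limma was 0.825 for each of these 5 genes. The 7 PI3K complex genes had differences below 0 between the doses, as small as -0.0074 for Uvrag and -0.0084 for Pik3c3. Becn1, Pik3c3, Atg14 and Uvrag turned direction with another scaling, Becn1, Pik3c3 and Uvrag when 1 library was left out, and Becn1, Pik3r4 and Uvrag were above 0 with the length trend out (0.038, 0.020 and 0.084). The doses did not overlap for 3 genes higher at 100 µM (Atg101, Atg4d and Tmem41b), or 9.09% of the 33, where 12.7% of all genes were so, and for 7 genes lower at 100 µM (Ulk1, Rb1cc1, Ambra1, Atg2a, Atg4c, Atg10 and Wdfy3), or 21.2%, where 15.6% of all genes were so.

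HBSS against cell media sets the vehicle hour beside the same hour in medium, and the values moved with the cell media libraries included. Limma on 12 libraries called 0 of 33 and 2 of 12026 genes (0.0166%), and limma-voom called 0 of 33. At an unadjusted p under 0.05, 5 of 33 were higher, where 24.9% of all genes were, and 3 of 33 were lower, where 15.1% were. Differences were above 0 for 22 of 33, where 61.2% of all genes were, and below 0 for 11, where 38.8% were, with a median of 0.14 against 0.10 for all genes. Median-of-ratios scaling moved the median of all genes to 0.0069 and that of the 33 to 0.036, while quantile normalization gave 0.023 and 0.029. The median of the 33 was 0.086, 0.028 or 0.24 without cell media replicate 1, 2 or 3. Without replicate 3, limma called 22 of 33 genes (17 higher, 5 lower) and 7852 of 12026. Without replicates 1 and 2, which leaves 1 cell media library assumed to vary like the other groups, it called 0 of 33 with a smallest adjusted p of 0.634, 8 differences were above 0 and the median was -0.11.

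Tmem41b had 9.64, 10.5 and 10.1 FPKM in HBSS, above all cell media libraries with 5.85, 8.09 and 8.50 FPKM, a log2 difference of 0.40 (SE 0.11, limma adjusted p = 0.0711), or 0.22 on 10 libraries (adjusted p = 0.644). Pik3r4 had 3.79, 3.77 and 4.22 FPKM in HBSS, above 2.25, 2.43 and 3.65 FPKM in cell media, a difference of 0.40 (SE 0.12, limma adjusted p = 0.0711), or 0.082 on 10 libraries (adjusted p = 0.754). Atg101 had 16.0, 18.5 and 16.8 FPKM in HBSS, against 33.4, 38.6 and 16.6 FPKM in cell media, where replicate 3 lay among the HBSS values. Its difference was -0.67 (SE 0.23, limma adjusted p = 0.0776), or 0.041 on 10 libraries. Atg2b and Atg4a also turned direction on 10 libraries, with 0.44 (SE 0.17, limma adjusted p = 0.0872) and -0.020 for Atg2b and 0.42 (SE 0.16, limma adjusted p = 0.0878) and -0.024 for Atg4a. Atg4b had 8.19, 7.84 and 7.38 FPKM in HBSS, below all cell media libraries, a difference of -0.20 (SE 0.074, limma adjusted p = 0.0858), or -0.12 on 10 libraries. The groups did not overlap for 2 genes higher in HBSS (Tmem41b and Pik3r4), where 12.7% of all genes were so, and for 2 lower (Atg4b and Atg16l2), where 8.91% were so. Cell media replicates 1 and 2 lay below all other 10 libraries for 15 of the 33 genes (45.5%), where 37.2% of all genes did, and above them for 5 (Atg101, Atg4b, Atg4d, Atg7 and Atg16l2, 15.2%), where 19.2% did.

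Paralogs differed in level, in the same order in most libraries. Ulk2 was above Ulk1 in 12 of 12 libraries, with an FPKM ratio between 2.01 and 3.10, Wipi2 above Wipi1 in 12 of 12 with a ratio between 3.69 and 5.41, and Atg16l1 above Atg16l2 in 12 of 12 with a ratio between 1.14 and 2.93. Atg2b was above Atg2a in 10 of 12, with ratios of 0.731 and 0.735 in cell media replicates 1 and 2. The ratio of Atg4d to Atg4c was 1.29, 1.48 and 1.57 at 100 µM, against 0.885, 1.1 and 1.17 at 20 µM and 1.18, 1.01 and 1.06 in HBSS. All 3 ratios at 100 µM lay above those at 20 µM and in HBSS, a description chosen after its values were seen, while in cell media the ratios were 1.51, 2.11 and 0.837 and spanned those at 100 µM. Exons of Atg4d overlap those of Kri1 on the other strand over 19.3% of their bases, those of Becn1 overlap Cntd1 over 43.9% and those of Uvrag overlap Gm45187 over 17.6%. Whether the counting used strand is not given in the sources used here. Exons of Atg9a overlap those of Gm29253 on the same strand over 31.8% of their bases, where strand would not separate the reads.

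Other genes of the pathway, taken from lists by role, showed 0 calls in either HOCl comparison. The 5 ATG8 genes all had differences above 0 at 100 µM, with a median of 0.11, led by Map1lc3b, encoding LC3B, with 9.87 ± 0.145 FPKM at 100 µM and 8.56 ± 0.354 FPKM in HBSS (log2 difference 0.19, SE 0.12, limma adjusted p = 0.672). With the length trend out, 4 of the 5 were above 0 at 100 µM, with a median of 0.0038 and Map1lc3b at 0.27. At 20 µM, 3 of the 5 were above 0, with a median of 0.0089. Of 10 genes in a cargo receptor list that also held Wdfy1, 3 were above 0 at 100 µM (median -0.074) and 6 at 20 µM (median 0.014). Optn, the mitophagy receptor optineurin, had 3.51 ± 0.426 FPKM at 100 µM and 4.09 ± 0.896 FPKM in HBSS. Of 8 further membrane supply genes, 2 were above 0 at 100 µM (median -0.082) and 5 at 20 µM (median 0.018). Of 13 further fusion genes, 6 were above 0 at 100 µM (median -0.0024) and 7 at 20 µM (median 0.0027), with Ykt6, a SNARE of autophagosome fusion, at 38.9 ± 0.858 FPKM at 100 µM and 35.2 ± 0.493 FPKM in HBSS. Of 15 negative and upstream regulators, 5 were above 0 at 100 µM (median -0.096) and 9 at 20 µM (median 0.0079). These genes do not all act on autophagy in the same direction. Sesn2, a stress-induced inhibitor of mTORC1, had 16.8 ± 1.5 FPKM at 100 µM and 19.4 ± 0.621 FPKM in HBSS (log2 difference -0.20, SE 0.078, unadjusted p = 0.0245, limma adjusted p = 0.625). Of 7 transcription factors, 2 were above 0 at 100 µM (median -0.10) and 5 at 20 µM (median 0.037). Tfeb, a driver of lysosome and autophagy genes, had 2.62 ± 0.224 FPKM at 100 µM and 2.11 ± 0.0823 FPKM in HBSS (log2 difference 0.22, SE 0.097, unadjusted p = 0.0455, limma adjusted p = 0.636), and 2.37 ± 0.296 FPKM at 20 µM (log2 difference 0.11, limma adjusted p = 1). On 10 libraries the limma adjusted p of Tfeb at 100 µM was 0.11. Zkscan3 had 3.72 ± 0.323 FPKM at 100 µM, every library below HBSS with 5.19 ± 0.129 FPKM. Its log2 difference was -0.39 (SE 0.23, limma adjusted p = 0.666, or 0.0514 on 10 libraries), and -0.30 with the length trend out. With the length trend out, the medians at 100 µM were -0.044 for the cargo receptor list, -0.013 for the membrane supply genes and 0.019 for the fusion genes. They were -0.019 for the negative and upstream regulators and 0.0011 for the transcription factors. Errors in this paragraph are SD over 3 libraries.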

How the data were processed

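RNA-seq of mRNA libraries from 12 J774A.1 samples was deposited by the authors as 1 table of FPKM per Ensembl gene ID. HISAT2, featureCounts and GRCm39 are named per the submitters' processing notes, with versions and strand setting not given in the sources used here. A pair of sequencers is named in the labels' protocols, without saying which sample ran on which. Genes with at least 1 FPKM in at least 3 libraries were tested with limma 3.58.1 (R 4.3.3) on log2(FPKM + 1), a scale that understates changes of low genes, with a mean-variance trend, 1 mean per group over 12 libraries, two-sided, and Benjamini-Hochberg adjustment at 0.05 over all 12026 genes. Only the limma step, for 100 µM against HBSS, was tested on simulated data. There the noise was normal, each gene had 1 spread for all libraries, and 200 genes were changed per round. The real libraries differed in spread, as the weights given below show, so the shares found hold for that setting only. On 12 libraries the limma step found 6.4% of 1.25-fold, 33.2% of 1.5-fold and 70.8% of 2-fold changes. On 10 libraries it found 37.6%, 61.2% and 88.8% of them. Reads were recovered from the FPKM steps with GENCODE M21 exon lengths, and 98.3% of values came out whole within 0.01. They served for limma-voom and for depth, and for 32 of the 33 genes they were whole within 0.1 in every library. In each comparison the 6 genes with the smallest limma p are given with their full statistics, and from the other lists up to 2 per list. The genes and lists were chosen with earlier results of these data known. Alternatives changed the pseudocount, filter, scaling, trend, weights, replicate block and libraries. Those that took out the length trend or used limma-voom were chosen after seeing the data.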

Additional observations from a re-analysis of the deposited data

How the results depend on the processing

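The count of the 33 genes that limma called at 100 µM against HBSS was 0 in every alternative run except the replicate block on 10 libraries, with 8 (Atg101 and Atg5 higher; Atg13, Rb1cc1, Atg2b, Atg4c, Wdfy3 and Vmp1 lower; 24.2% of 33, where 24.8% of all genes were called), and library weights, with 7 (21.2%, where 25.5% were called). The genes called among all were then 2979 and 3067, against 29 on 10 libraries, 2 with the compared groups alone, 1 without a filter, 1 on 10 libraries with the length trend out, and 0 to 5 as single libraries were left out. Between 100 µM and 20 µM the same fits called 6 and 13 of the 33 and 2088 and 4677 of all genes, and all genes gave 11 without a filter, 1 with the compared groups alone and 0 to 1 as single libraries were left out. At 20 µM against HBSS all genes gave 6 without a filter. For HBSS against cell media, where all genes gave 2, the count was 1 with a pseudocount of 0.5, a mean of at least 5 FPKM or the length trend out, 4 with quantile normalization or limma-voom, and 5 without a filter or a mean-variance trend. It was 0 with the compared groups alone and in the fits on 10 libraries, 6889 with library weights, and 0 to 7852 as single libraries were left out, where the 33 gave 19 with weights and 0 to 22. The weights were 0.0441 for cell media replicate 3 and 7.39 for 20 µM replicate 2.

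The labels do not say that a replicate number marks a shared batch, and same-numbered libraries deviated together in some pairs and not in others, so they were not treated as paired. Among the 100 µM, 20 µM and HBSS groups the correlations were 0.264 to 0.377 for replicate 1, -0.0623 to 0.075 for replicate 2 and -0.0254 to 0.414 for replicate 3, and the lowest of all, -0.417, was with a cell media library. Whether the numbers stand for a shared batch was not settled by these values. The replicate block on 12 libraries called 0 of the 33 in each comparison, and 193 genes of all for HBSS against cell media. For HBSS against cell media, 22 of the 33 differences were above 0 on 12 libraries and 8 on 10 libraries. Of the genes named for that comparison, those that reversed on 10 libraries were Atg101, Atg2b and Atg4a. Atg101 had 0.041, 0.080 with the block and 0.018 with the length trend out. Atg2b had -0.020 and -0.073 with the block, and Atg4a had -0.024, -0.10 with the block and -0.046 with the length trend out. The cause was not tested.

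Of the values of single named genes under the alternatives, 962 kept their direction and side of the threshold, 40 passed it and 8 reversed. Wdfy3 at 100 µM against HBSS ranged from -0.70 to -0.36. Depth limits Atg10 most, and groups of 3 libraries give 95% intervals wider than most of the differences seen.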
